A study of Homo sapiens with 12 samples.

Results

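Voltage-gated calcium and sodium channel genes and potassium channel genes were followed across 4 siRNA groups of a human cell line. They are the protein-coding genes whose GENCODE 29 symbol begins with KCN or CACN, or consists of SCN, a number and the letter A or B. The rule was met by 137 of 60554 counted gene IDs, among 19682 protein-coding genes. Sorted by symbol into 14 roles, they comprise pore-forming and auxiliary subunits of calcium, sodium and potassium channels.

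The 12 libraries of poly(A) RNA came from cells that the source label gives as HEK293 and the cell line label as HEK293T, a derivative of that embryonic kidney line which carries a viral large T antigen. Passage 10 is given for every sample. RBM17 knockdown, U2SURP knockdown and CHERP knockdown each received an ON-TARGETplus SMARTpool, a pool of siRNAs against the named mRNA, and the control received Non-targeting siRNA #3, for which no pool is named (3 libraries each). No label says that the 3 libraries of a group are separate cultures, so the p-values below measure the spread between libraries, which may be technical. The product of RBM17, U2SURP and CHERP is in each case an RNA-binding protein associated with the U2 small nuclear ribonucleoprotein of the spliceosome, and the design asks what the loss of each does to the transcriptome. The titles of the libraries in each group carry consecutive numbers. No label says what the numbers stand for, and anything that follows them cannot be told apart from the group.

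Channel proteins of these families open and close in response to membrane voltage, calcium, lipids, pH or G proteins. Calcium and sodium channels pass inward current that starts electrical signals or calcium entry, and potassium channels pass outward or leak current that ends them or holds the resting potential. A pore-forming subunit makes the ion path, while auxiliary subunits govern its assembly, delivery to the membrane and gating. Most are studied in nerve, heart, muscle and kidney, and HEK293 cells are a common host for cloned channels because their own voltage-gated currents are small.

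The sequence upstream of 3 members that reached their highest level in RBM17 knockdown is shown because these genes return throughout the results; the 3 were chosen after their values were seen. Each is the 250 bases before the RefSeq transcription start, 5′ to 3′ on the plus strand, from RefSeq on GRCh38.p14. In KCNK3 (chr2:26692472-26692721) capitals mark GGTGCTGAA, the other strand of TTCAGCACC, and GGACAGC, which are the letters of the first and second parts of the RE1 element, the site of the repressor REST. In CACNA1B (chr9:137877532-137877781) and KCNC1 (chr11:17734531-17734780) capitals mark GC boxes, GGGCGG or CCGCCC on the other strand.
KCNK3: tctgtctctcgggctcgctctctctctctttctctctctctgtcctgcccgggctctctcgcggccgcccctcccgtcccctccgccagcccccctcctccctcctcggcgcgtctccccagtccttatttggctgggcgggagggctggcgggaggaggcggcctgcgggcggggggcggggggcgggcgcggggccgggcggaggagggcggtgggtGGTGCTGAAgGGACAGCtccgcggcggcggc
CACNA1B: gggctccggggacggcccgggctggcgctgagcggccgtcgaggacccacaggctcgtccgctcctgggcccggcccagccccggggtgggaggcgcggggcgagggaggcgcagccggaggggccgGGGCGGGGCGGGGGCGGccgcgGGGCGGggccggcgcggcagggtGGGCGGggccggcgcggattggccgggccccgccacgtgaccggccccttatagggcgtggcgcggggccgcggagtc
KCNC1: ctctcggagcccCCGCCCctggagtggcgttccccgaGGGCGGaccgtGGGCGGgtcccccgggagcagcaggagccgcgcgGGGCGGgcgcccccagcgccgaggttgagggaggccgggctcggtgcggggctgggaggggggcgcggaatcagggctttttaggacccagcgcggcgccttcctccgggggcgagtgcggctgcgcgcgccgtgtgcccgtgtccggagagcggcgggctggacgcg
The KCNK3 parts lie 31 to 23 and 21 to 15 bases before the RefSeq start, which is 32 bases past the start of the gene in GENCODE 29, so both parts fall inside the GENCODE gene. They read on opposite strands, unlike the arrangement within a full element. Searched on both strands, TTCAGCACC occurred in 3 of 150 windows of channel genes (2%), and in 0.288% of 35116 windows of all genes. Both parts together were found in 2 windows of channel genes (1.33%), those of KCNK3 and KCNH6, and in 0.0427% of all windows. KCNH6 did not pass the test in any knockdown against control. GGGCGG, whose matches may overlap, occurred in 49.3% of channel gene windows and 42.6% of all windows, and TATAAA in 7.33% and 10.7%. The median content of G and C was 63.8% in channel gene windows and 58% in all windows, and its part in these shares was not tested. All of these are matches of letters and no binding was measured. A promoter entry was given for 98 of the 137 genes.

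Counts are given as CPM, the reads of a gene divided by those of its library after scaling, on the usual CPM scale, and means are given ± SD over the 3 libraries of a group. Totals ran from 252505520 to 320986785 counts per library. Each targeted mRNA was at 23.0% (RBM17), 30.5% (U2SURP) and 29.3% (CHERP) of its control level. Mitochondrial genes took 3.98 to 5.15% of counts in the knockdowns and 7.88 to 8.70% in control. Of 10 markers of HEK293 and embryonic kidney, PAX8 alone stayed under 0.1 CPM in every library, as did the blood markers PTPRC, CD3E, LYZ and HBB and the muscle markers TNNT2 and MYH6. In bulk RNA, fewer cells that express a gene and less of its RNA per cell cannot be told apart.

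Channel genes were a small part of the transcriptome. Together they held 0.0821 to 0.0861% of counts in RBM17 knockdown, 0.0757 to 0.0781% in U2SURP knockdown and 0.0667 to 0.0706% in CHERP knockdown, against 0.0861 to 0.0933% in control. Their summed level was 868.7 ± 4.29 CPM in RBM17 knockdown, 764.1 ± 7.47 CPM in U2SURP knockdown and 667 ± 17.2 CPM in CHERP knockdown, against 889 ± 13.3 CPM in control (SD, n = 3 each). CHERP knockdown was lowest in every library and U2SURP knockdown next, with no overlap with control, while RBM17 knockdown (865.5 to 873.6 CPM) lay just below control (880.2 to 904.2 CPM). Exonic bases are shared with another gene by 54 members, and as no source used here says whether strand entered the counting, reads from opposite strands cannot be told apart there. Over all 12 libraries 93 members averaged at least 0.2 CPM and 34 at least 5 CPM.

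Compared per length, as TPM, the same scale after division by exon length, the most abundant member in control was CACNA1H at 51.4 ± 4.48 TPM (SD, n = 3), the pore of a T-type calcium channel that opens near the resting potential. KCNJ8, the pore of an ATP-sensitive potassium channel, followed at 41.0 ± 1.59 TPM. CACNA2D3 (29.4 ± 1.16 TPM), CACNA2D1 (26.0 ± 1.33 TPM) and CACNA2D2 (19.4 ± 1.38 TPM), alpha2delta subunits that carry calcium channels to the membrane, were also high. KCNJ11 (24.9 ± 0.254 TPM), KCNQ5 (15.8 ± 0.4996 TPM) and KCNG1 (13.5 ± 0.685 TPM) completed the 8 highest. CACNA2D1 and KCNJ11 did not differ beyond their spread, whereas the gap between CACNA1H and KCNJ8 exceeded it.

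Of the 137 members, 117 passed the filter on low counts and were tested. The other 20, among them KCNA5, KCNA6, SCN1A, SCN7A, SCN10A and CACNG1 to CACNG3, reached at most 18 counts in a library, and 2 had no count. The filter keeps a gene that is present in a single group, so the counts below describe the tested members and not the family. Tests are edgeR quasi-likelihood tests over 29003 genes with Benjamini-Hochberg adjustment; a gene with an adjusted p under 0.05 is called, and a fold change is given as log2 ± SE, knockdown over control unless stated.

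In RBM17 knockdown 27 tested members were called higher (23.1%) and 37 lower (31.6%). Over all genes tested 25.4% were called higher and 29.3% lower, and over protein-coding genes 38.7% and 27.2%. In U2SURP knockdown 11 were called higher (9.4%) and 46 lower (39.3%), against a background of 21.1% and 22.2% over all genes and 29.4% and 26.8% over protein-coding genes. In CHERP knockdown 17 were called higher (14.5%) and 58 lower (49.6%), against 22.8% and 24.6% over all genes and 29.6% and 31% over protein-coding genes. The share of members called lower was thus near the background in RBM17 knockdown and above it in U2SURP and CHERP knockdown, while the share called higher was below that of protein-coding genes in each. The median log2 fold change of tested members was -0.024 in RBM17 knockdown, -0.23 in U2SURP knockdown and -0.36 in CHERP knockdown, beside -0.099, -0.025 and -0.0035 over all genes tested. Over protein-coding genes tested it was 0.06, 0.0095 and -0.0028. In RBM17 knockdown the members' median thus lay above that of all genes and below that of protein-coding genes. Among the 34 members of at least 5 CPM, 11 were called higher and 16 lower in RBM17 knockdown, 3 and 17 in U2SURP knockdown and 4 and 24 in CHERP knockdown. With a tested minimum change of 2-fold the counts were 6 higher and 5 lower, 0 and 3, and 1 and 12. No share of all genes at that level or that minimum is given, so these counts are not set against a background.

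**Figure D1:**
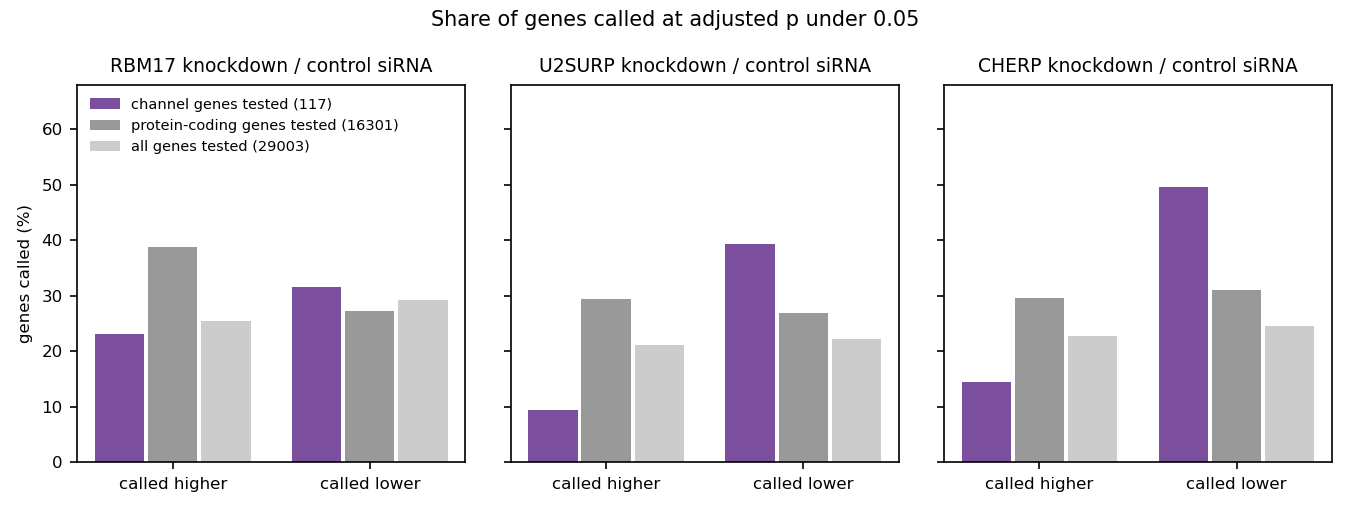
Share of genes called higher or lower at adjusted p under 0.05 in each knockdown against control (y axis, percent), for the 117 tested channel genes, the 16301 tested protein-coding genes and all 29003 tested genes. Called lower were 31.6% of channel genes in RBM17 knockdown, 39.3% in U2SURP knockdown and 49.6% in CHERP knockdown, against 29.3%, 22.2% and 24.6% of all genes.

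**Figure D2:**
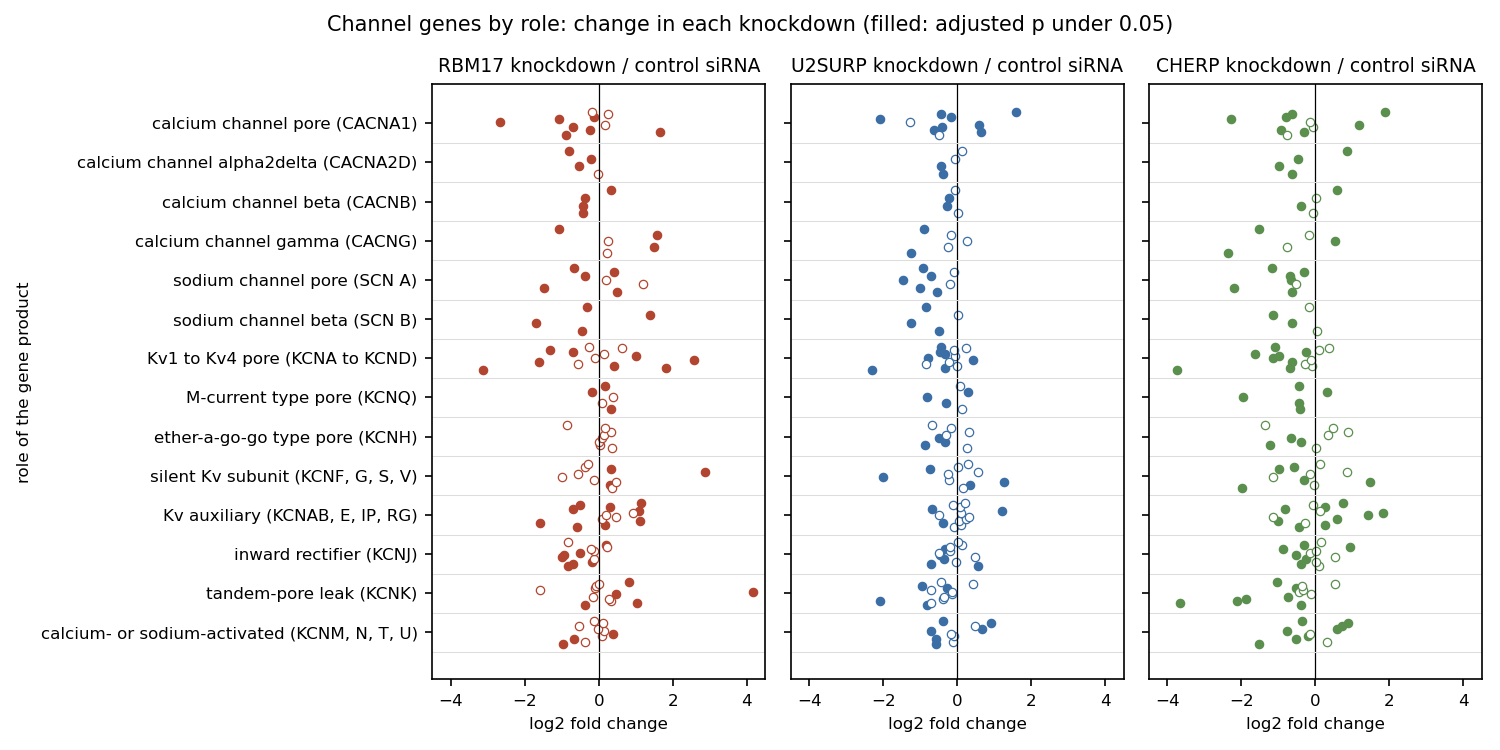
Log2 fold change against control (x axis) of each tested channel gene, by the role of its product (rows), in RBM17, U2SURP and CHERP knockdown (panels); filled points have an adjusted p under 0.05 and open points do not. KCNK3, at 4.16 in RBM17 knockdown, lies farthest right, and KCNA1, at -3.75 in CHERP knockdown, farthest left.

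Counts per role, here and below, cover 4 to 13 tested genes each, and no role was tested against the background. Over all genes tested, 25.4% were called higher and 29.3% lower in RBM17 knockdown. The shares were 21.1% and 22.2% in U2SURP knockdown, and 22.8% and 24.6% in CHERP knockdown. A role count near these shares is no trait of the role. Among the calcium channel pores (CACNA1), 10 of 10 were tested. In RBM17 knockdown 1 was called higher and 6 lower, in U2SURP knockdown 3 and 5, and in CHERP knockdown 2 and 5. CACNA1B (chr9:137877789-138124624, plus strand, GENCODE 29 on GRCh38) encodes the pore of the N-type channel, which triggers transmitter release at nerve endings. It had 22.3, 23.9 and 23.9 CPM in RBM17 knockdown, 10.8, 11.3 and 12.3 CPM in U2SURP knockdown and 6.23, 5.86 and 5.63 CPM in CHERP knockdown, against 7.79, 7.46 and 6.83 CPM in control. No 2 groups overlapped, and the order was RBM17, U2SURP, control and CHERP. The log2 fold change was 1.67 ± 0.071 (adjusted p = 3.32e-14) in RBM17 knockdown, 0.64 ± 0.07 (adjusted p = 1.14e-07) in U2SURP knockdown and -0.32 ± 0.071 (adjusted p = 0.000627) in CHERP knockdown.

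The T-type pore CACNA1G (chr17:50561068-50627474, plus strand) fell in each knockdown. It had 0.973, 0.508 and 0.714 CPM in RBM17 knockdown, 0.442, 0.290 and 0.363 CPM in U2SURP knockdown and 0.383, 0.332 and 0.239 CPM in CHERP knockdown, against 1.48, 1.71 and 1.46 CPM in control. All knockdown libraries lay below all control libraries, with the lowest values in U2SURP and CHERP knockdown. Its log2 fold change was -1.08 ± 0.20 (adjusted p = 5.81e-05) in RBM17 knockdown, -2.09 ± 0.21 (adjusted p = 2.99e-08) in U2SURP knockdown and -2.29 ± 0.21 (adjusted p = 4.52e-09) in CHERP knockdown. The related CACNA1H had 111, 112 and 113 CPM in RBM17 knockdown, 112, 109 and 110.1 CPM in U2SURP knockdown and 74.6, 69.4 and 67.0 CPM in CHERP knockdown, against 131, 118 and 119 CPM in control. It fell by 0.80 ± 0.053 on the log2 scale in CHERP knockdown (adjusted p = 1.73e-11). Its calls in the other two knockdowns were small and depended on single libraries. In RBM17 knockdown (-0.13 ± 0.052, adjusted p = 0.0375) the call was lost without any 1 of 9 libraries, with adjusted p between 0.0501 (without U2SURP library 2) and 0.244 (without control library 1). In U2SURP knockdown (-0.15 ± 0.052, adjusted p = 0.0193) it was lost without U2SURP library 2 (adjusted p = 0.0717), U2SURP library 3 (0.059) or control library 1 (0.149), and the sign turned to 0.056 with offsets for GC content and length.

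Of the L-type pores, CACNA1C, the channel of heart and smooth muscle, fell in all 3 knockdowns, by 1.18-fold in RBM17 knockdown, 1.55-fold in U2SURP knockdown and 1.92-fold in CHERP knockdown. It ranged over 14.7 to 15.1 CPM in RBM17 knockdown, 10.6 to 11.8 CPM in U2SURP knockdown and 8.75 to 10.1 CPM in CHERP knockdown, against 17.0 to 18.5 CPM in control. CACNA1D had 4.86 ± 0.224 CPM in RBM17 knockdown and 5.95 ± 0.490 CPM in U2SURP knockdown, both called lower than 7.85 ± 0.607 CPM in control, while 7.52 ± 0.243 CPM in CHERP knockdown was not called (adjusted p = 0.555). Its exons share 1399 bases with CHDH on the opposite strand. CACNA1S, the voltage sensor of skeletal muscle, went the other way from a low level. It had 0.168, 0.0924 and 0.122 CPM in RBM17 knockdown, 0.349, 0.590 and 0.384 CPM in U2SURP knockdown and 0.603, 0.509 and 0.510 CPM in CHERP knockdown, against 0.127, 0.167 and 0.146 CPM in control. U2SURP and CHERP libraries all exceeded the other 6, with log2 fold changes of 1.59 ± 0.25 (adjusted p = 1.38e-05) and 1.88 ± 0.25 (adjusted p = 9.88e-07), and RBM17 knockdown overlapped control (-0.19 ± 0.27, adjusted p = 0.578). The R-type pore CACNA1E ranged over 0.231 to 0.258 CPM in RBM17 knockdown, 0.275 to 0.374 CPM in U2SURP knockdown and 0.443 to 0.590 CPM in CHERP knockdown, against 0.174 to 0.271 CPM in control. It rose in CHERP knockdown (1.19 ± 0.21, adjusted p = 6.55e-05). Its call in U2SURP knockdown (0.59 ± 0.22, adjusted p = 0.0311) was lost without U2SURP library 1 (adjusted p = 0.124) or 3 (0.0905), or control library 2 (0.152) or 3 (0.062).

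Of 13 accessory calcium channel subunits tested, 3 were called higher and 7 lower in RBM17 knockdown, 0 and 6 in U2SURP knockdown, and 3 and 6 in CHERP knockdown. Of the 4 alpha2delta genes, 3 were called lower in RBM17 knockdown, 2 in U2SURP knockdown and 3 in CHERP knockdown, where CACNA2D4 alone was called higher. CACNA2D2 fell in all 3 and ranged over 22.7 to 24.0 CPM in RBM17 knockdown, 23.6 to 26.9 CPM in U2SURP knockdown and 15.6 to 19.0 CPM in CHERP knockdown, against 33.4 to 35.3 CPM in control. Its log2 fold change was -0.54 ± 0.066 (adjusted p = 2.48e-07), -0.43 ± 0.066 (adjusted p = 1.29e-05) and -0.99 ± 0.067 (adjusted p = 2.72e-11) in RBM17, U2SURP and CHERP knockdown. CACNA2D1, a binding site of gabapentin, had 63.9, 65.9 and 62.0 CPM in RBM17 knockdown, 50.05, 49.7 and 49.5 CPM in U2SURP knockdown and 40.6, 39.7 and 44.4 CPM in CHERP knockdown, against 60.9, 65.5 and 68.6 CPM in control. RBM17 libraries overlapped control (-0.024 ± 0.055, adjusted p = 0.734), and it fell in U2SURP knockdown (-0.39 ± 0.055, adjusted p = 3.89e-06) and CHERP knockdown (-0.64 ± 0.055, adjusted p = 1.16e-09). CACNA2D3 ranged over 28.8 to 35.4 CPM in RBM17 knockdown, 34.9 to 39.2 CPM in U2SURP knockdown and 26.6 to 28.9 CPM in CHERP knockdown, against 37.6 to 38.8 CPM in control. It fell in CHERP knockdown (-0.46 ± 0.065, adjusted p = 2.78e-06) and in RBM17 knockdown (-0.22 ± 0.065, adjusted p = 0.00612), where the call was lost without RBM17 library 1 (adjusted p = 0.0581).

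The 4 beta genes encode cytoplasmic subunits that bind the pore's inner loop; 1 was called higher and 3 lower in RBM17 knockdown, 0 and 2 in U2SURP knockdown, and 1 and 1 in CHERP knockdown. CACNB4, expressed in brain, was the one called higher. It had 54.0, 46.8 and 45.7 CPM in RBM17 knockdown, 39.1, 40.1 and 34.3 CPM in U2SURP knockdown and 56.7, 56.6 and 63.4 CPM in CHERP knockdown, against 35.8, 40.9 and 40.5 CPM in control. CHERP libraries were the highest and did not overlap any other group, with a log2 fold change of 0.59 ± 0.071 (adjusted p = 3.32e-07), and it also rose in RBM17 knockdown (0.32 ± 0.071, adjusted p = 0.000526). CACNB4 shares 2168 exonic bases with AC068547.1 on the same strand. CACNB2 fell in all 3 knockdowns and ranged over 8.73 to 9.47 CPM in RBM17 knockdown, 9.86 to 10.4 CPM in U2SURP knockdown and 9.14 to 9.80 CPM in CHERP knockdown, against 11.8 to 13.1 CPM in control. It shares 742 exonic bases with AL450384.2 on the opposite strand, which fell in each as well (log2 -0.22, -0.31 and -0.36). CACNB1 fell in RBM17 knockdown (-0.44 ± 0.075, adjusted p = 2.59e-05), and CACNB3 fell in RBM17 knockdown (-0.37 ± 0.07, adjusted p = 6.86e-05) and U2SURP knockdown (-0.22 ± 0.069, adjusted p = 0.011), where the call was lost without U2SURP library 2 (adjusted p = 0.083) or control library 1 (0.0631), and with offsets for GC content and length (0.0865).

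Gamma genes of this group encode subunits of muscle calcium channels and relatives that escort AMPA-type glutamate receptors. Of 8 genes 5 were tested; 2 were called higher and 1 lower in RBM17 knockdown, 0 and 2 in U2SURP knockdown, and 1 and 2 in CHERP knockdown. CACNG8, an AMPA receptor escort, had 14.8, 13.4 and 13.7 CPM in RBM17 knockdown, 17.0, 15.8 and 14.4 CPM in U2SURP knockdown and 11.5, 9.59 and 9.32 CPM in CHERP knockdown, against 31.0, 30.9 and 26.4 CPM in control. Every knockdown library lay below every control library, with log2 fold changes of -1.08 ± 0.081 (adjusted p = 1.04e-10) in RBM17 knockdown, -0.90 ± 0.08 (adjusted p = 5.14e-09) in U2SURP knockdown and -1.54 ± 0.082 (adjusted p = 5.19e-13) in CHERP knockdown. CACNG4 ranged over 0.585 to 0.608 CPM in RBM17 knockdown, 0.187 to 0.260 CPM in U2SURP knockdown and 0.0613 to 0.153 CPM in CHERP knockdown, against 0.445 to 0.605 CPM in control. It fell 2.39-fold in U2SURP knockdown and 5.12-fold in CHERP knockdown and did not pass the test in RBM17 knockdown (adjusted p = 0.399). CACNG7 had 0.578, 0.385 and 0.700 CPM in RBM17 knockdown, 0.253, 0.0999 and 0.147 CPM in U2SURP knockdown and 0.145, 0.158 and 0.194 CPM in CHERP knockdown, against 0.187, 0.195 and 0.179 CPM in control. The RBM17 libraries exceeded all others, with a log2 fold change of 1.57 ± 0.28 (adjusted p = 4.14e-05), while U2SURP and CHERP libraries overlapped control. Direct contrasts of RBM17 with U2SURP knockdown (1.74 ± 0.28, adjusted p = 1.87e-05) and with CHERP knockdown (1.74 ± 0.28, adjusted p = 1.35e-05) were called too.

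Sodium channel pores were tested for 7 of 10 genes; 2 were called higher and 3 lower in RBM17 knockdown, 0 and 5 in U2SURP knockdown, and 0 and 6 in CHERP knockdown. SCN9A, a channel of pain-sensing neurons, had 6.41, 6.85 and 5.86 CPM in RBM17 knockdown, 5.86, 5.30 and 4.93 CPM in U2SURP knockdown and 5.44, 4.46 and 3.59 CPM in CHERP knockdown, against 10.1, 9.93 and 10.4 CPM in control. All 9 knockdown libraries were below control, with log2 fold changes of -0.67 ± 0.11 (adjusted p = 1.03e-05) in RBM17 knockdown, -0.92 ± 0.11 (adjusted p = 3.12e-07) in U2SURP knockdown and -1.17 ± 0.11 (adjusted p = 5.5e-09) in CHERP knockdown. SCN9A shares 1122 exonic bases with AC010127.1 on the opposite strand. The latter averaged 0.0557 CPM in control and was called lower in RBM17 knockdown (log2 -1.83, edgeR adjusted p = 0.0102). SCN4A, the skeletal muscle channel, had 2.88, 3.66 and 3.31 CPM in RBM17 knockdown, 0.912, 0.980 and 1.24 CPM in U2SURP knockdown and 1.53, 1.86 and 2.09 CPM in CHERP knockdown, against 3.13, 2.59 and 2.89 CPM in control. The U2SURP libraries were the lowest of the 4 groups (-1.46 ± 0.13, adjusted p = 9.58e-09), CHERP knockdown came next (-0.65 ± 0.13, adjusted p = 0.000202), and RBM17 knockdown overlapped control (0.19 ± 0.13, adjusted p = 0.213).

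SCN8A, the channel of axon initial segments and nodes, averaged 48.8 ± 1.80 CPM in RBM17 knockdown, 34.7 ± 1.41 CPM in U2SURP knockdown and 30.0 ± 2.15 CPM in CHERP knockdown, against 37.0 ± 1.87 CPM in control. It rose in RBM17 knockdown (0.40 ± 0.058, adjusted p = 2.83e-06), fell in CHERP knockdown (-0.30 ± 0.058, adjusted p = 0.000125) and was not called in U2SURP knockdown (adjusted p = 0.216). SCN11A, another channel of pain-sensing neurons, rose in RBM17 knockdown (0.49 ± 0.11, adjusted p = 0.00047) and fell in U2SURP knockdown (-0.54 ± 0.11, adjusted p = 0.000344) and CHERP knockdown (-0.62 ± 0.11, adjusted p = 5.58e-05). The brain channel SCN2A ranged over 0.126 to 0.231 CPM in RBM17 knockdown, 0.194 to 0.335 CPM in U2SURP knockdown and 0.0469 to 0.163 CPM in CHERP knockdown, against 0.434 to 0.662 CPM in control. It fell in RBM17 knockdown (-1.49 ± 0.31, adjusted p = 0.000324) and CHERP knockdown (-2.21 ± 0.33, adjusted p = 6.66e-06), while the call in U2SURP knockdown (-1.01 ± 0.30, adjusted p = 0.0098) was lost without U2SURP library 2 (adjusted p = 0.0628) or control library 3 (0.0556).

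The 4 sodium channel beta genes encode single-pass subunits that modulate gating and adhesion; 1 was called higher and 3 lower in RBM17 knockdown, 0 and 3 in U2SURP knockdown, and 0 and 2 in CHERP knockdown. SCN3B (chr11:123629187-123655244, minus strand) had 17.1, 16.3 and 16.3 CPM in RBM17 knockdown, 6.76, 6.45 and 6.50 CPM in U2SURP knockdown and 3.07, 2.92 and 2.75 CPM in CHERP knockdown, against 6.65, 6.17 and 6.39 CPM in control. RBM17 libraries were far above control and CHERP libraries far below it, while U2SURP libraries overlapped control. The log2 fold change was 1.37 ± 0.069 (adjusted p = 3.52e-13) in RBM17 knockdown, 0.037 ± 0.069 (adjusted p = 0.71) in U2SURP knockdown and -1.14 ± 0.071 (adjusted p = 8.11e-12) in CHERP knockdown. SCN2B moved unlike it. It had 0.269, 0.246 and 0.337 CPM in RBM17 knockdown, 0.392, 0.393 and 0.373 CPM in U2SURP knockdown and 0.614, 0.519 and 0.645 CPM in CHERP knockdown, against 1.04, 0.671 and 1.04 CPM in control, and it fell in all 3, by 3.21-fold in RBM17 knockdown, 2.37-fold in U2SURP knockdown and 1.54-fold in CHERP knockdown (adjusted p = 7.13e-08, 7.59e-06 and 0.00592). SCN4B ranged over 2.71 to 3.06 CPM in RBM17 knockdown, 1.78 to 2.30 CPM in U2SURP knockdown and 2.95 to 3.46 CPM in CHERP knockdown, against 3.56 to 3.79 CPM in control. It fell in U2SURP knockdown (-0.85 ± 0.10, adjusted p = 4.89e-07). Its call in RBM17 knockdown (-0.31 ± 0.10, adjusted p = 0.013) was lost without RBM17 library 1 (adjusted p = 0.0629).

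Voltage-gated potassium channel pores of the KCNA to KCND families repolarise excitable cells. Of 17 genes 13 were tested, and 4 were called higher and 4 lower in RBM17 knockdown, 1 and 6 in U2SURP knockdown, and 0 and 8 in CHERP knockdown.

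KCNA2 (chr1:110519837-110631474, minus strand), a channel of myelinated axons, had 4.30, 4.71 and 5.20 CPM in RBM17 knockdown, 0.972, 0.934 and 1.29 CPM in U2SURP knockdown and 0.759, 0.925 and 0.839 CPM in CHERP knockdown, against 1.46, 1.35 and 1.22 CPM in control. It rose in RBM17 knockdown (1.82 ± 0.13, adjusted p = 3.37e-11) and fell in CHERP knockdown (-0.68 ± 0.13, adjusted p = 0.000146). The call of a fall in U2SURP knockdown (-0.34 ± 0.13, adjusted p = 0.0373) was lost without U2SURP library 1 (adjusted p = 0.11) or 2 (0.185), or control library 1 (0.15) or 2 (0.0833). For KCNA2 that call was also lost with DESeq2 size factors (0.0545), offsets for GC content and length (0.0547) and both groups fitted alone (0.071). Its close relative KCNA1 (chr12:4909905-4918256, plus strand) had 0.131, 0.0270 and 0.140 CPM in RBM17 knockdown, 0.292, 0.162 and 0.0872 CPM in U2SURP knockdown and 0.106, 0.0536 and 0.0387 CPM in CHERP knockdown, against 0.835, 0.914 and 0.921 CPM in control. All 9 knockdown libraries lay far below the 3 control libraries. The log2 fold change was -3.14 ± 0.46 (adjusted p = 3.8e-05) in RBM17 knockdown, -2.3 ± 0.43 (adjusted p = 0.000521) in U2SURP knockdown and -3.75 ± 0.49 (adjusted p = 1.46e-05) in CHERP knockdown.

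The KCNC genes encode channels of fast-spiking neurons, and they parted. KCNC1, named for its opposite changes after its values were seen, had 33.5, 31.9 and 32.9 CPM in RBM17 knockdown, 15.7, 15.8 and 15.4 CPM in U2SURP knockdown and 8.78, 8.07 and 7.78 CPM in CHERP knockdown, against 17.1, 15.8 and 15.8 CPM in control. U2SURP libraries lay at the lower edge of control (-0.054 ± 0.059, adjusted p = 0.5). It rose in RBM17 knockdown (1.01 ± 0.059, adjusted p = 3.12e-12) and fell in CHERP knockdown by about as much on the log2 scale (-0.99 ± 0.06, adjusted p = 5.44e-12). KCNC4 fell in RBM17 knockdown (-0.68 ± 0.063, adjusted p = 2.64e-09), U2SURP knockdown (-0.46 ± 0.063, adjusted p = 2.25e-06) and CHERP knockdown (-0.26 ± 0.063, adjusted p = 0.00115), where offsets for GC content and length ended the call (adjusted p = 0.0964). It ranged over 42.2 to 45.3 CPM in RBM17 knockdown, 49.8 to 52.2 CPM in U2SURP knockdown and 55.6 to 60.1 CPM in CHERP knockdown, against 61.2 to 75.0 CPM in control.

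KCND1, an A-type channel of fast inactivation, had 3.12, 3.15 and 3.36 CPM in RBM17 knockdown, 7.74, 7.78 and 7.30 CPM in U2SURP knockdown and 9.91, 8.15 and 7.84 CPM in CHERP knockdown, against 8.31, 8.51 and 7.21 CPM in control. It fell in RBM17 knockdown (-1.32 ± 0.09, adjusted p = 2.32e-11) and was not called in U2SURP knockdown (adjusted p = 0.527) or CHERP knockdown (adjusted p = 0.328); RBM17 knockdown was also called lower than U2SURP knockdown (-1.25 ± 0.09, adjusted p = 1.11e-10) and CHERP knockdown (-1.43 ± 0.09, adjusted p = 4.34e-12). KCNA7 ranged over 0.255 to 0.320 CPM in RBM17 knockdown, 0.680 to 0.831 CPM in U2SURP knockdown and 0.526 to 0.653 CPM in CHERP knockdown, against 0.714 to 1.03 CPM in control, falling 3.06-fold in RBM17 knockdown and 1.55-fold in CHERP knockdown. KCNB2 fell in U2SURP knockdown (-0.78 ± 0.074, adjusted p = 1.2e-08) and CHERP knockdown (-1.15 ± 0.074, adjusted p = 1.46e-11) but was not called in RBM17 knockdown (-0.10 ± 0.073, adjusted p = 0.255).

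**Figure D3:**
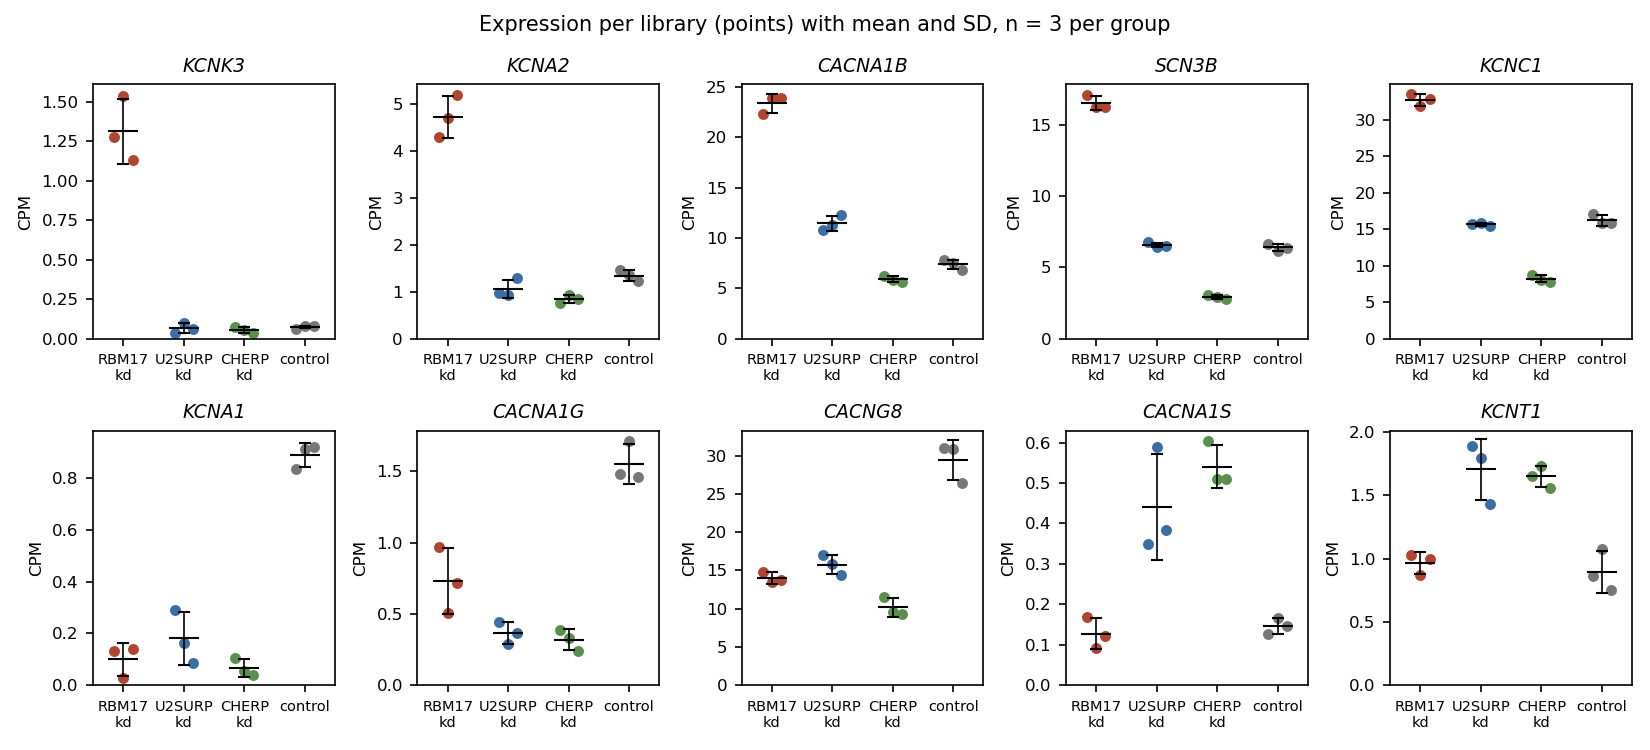
CPM per library (y axis, linear from 0) of 10 channel genes in RBM17, U2SURP and CHERP knockdown and control (x axis); points are libraries and bars the mean and SD of 3. KCNK3 and KCNA2 stand high in RBM17 knockdown, KCNA1, CACNA1G and CACNG8 stand low in all 3 knockdowns, and CACNA1S and KCNT1 stand high in U2SURP and CHERP knockdown.

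All 5 KCNQ genes, which encode slow channels of heart and neurons, were tested; 2 were called higher and 1 lower in RBM17 knockdown, and 1 and 2 in U2SURP knockdown. In CHERP knockdown 4 were called lower and 1 higher. KCNQ5 ranged over 36.2 to 38.9 CPM in RBM17 knockdown, 33.9 to 36.1 CPM in U2SURP knockdown and 23.4 to 25.6 CPM in CHERP knockdown, against 31.5 to 36.1 CPM in control. KCNQ1, the slow delayed rectifier of the heart, ranged over 6.99 to 7.85 CPM in RBM17 knockdown, 6.32 to 6.84 CPM in U2SURP knockdown and 4.19 to 4.58 CPM in CHERP knockdown, against 5.52 to 6.32 CPM in control. In CHERP knockdown KCNQ5 fell by 1.37-fold and KCNQ1 by 1.34-fold. In RBM17 knockdown KCNQ1 rose (0.32 ± 0.078, adjusted p = 0.00119). The call for KCNQ5 there (0.17 ± 0.059, adjusted p = 0.0151) was lost without RBM17 library 2 (adjusted p = 0.0745) or control library 1 (0.0849) or 2 (0.0684). That KCNQ5 call was also lost with offsets for GC content and length (0.08, adjusted p = 0.141) and with protein-coding genes alone (0.0834). KCNQ3 ranged over 0.388 to 0.858 CPM in RBM17 knockdown, 0.265 to 0.324 CPM in U2SURP knockdown and 0.0710 to 0.174 CPM in CHERP knockdown, against 0.494 to 0.589 CPM in control. It fell in CHERP knockdown (-1.96 ± 0.29, adjusted p = 6.13e-06); its call in U2SURP knockdown (-0.81 ± 0.27, adjusted p = 0.0167) was lost without U2SURP library 2 (adjusted p = 0.071) or control library 3 (0.0639).

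The 8 KCNH genes, ether-a-go-go type channels, showed no call in RBM17 knockdown, and KCNH2, KCNH3 and KCNH4 were called lower in U2SURP and in CHERP knockdown. In U2SURP knockdown the call for KCNH3 was lost without U2SURP library 2 (adjusted p = 0.0572) or 3 (0.139) or control library 1 (0.067), and with offsets for GC content and length (0.148), which also ended its call in CHERP knockdown (0.239). That for KCNH4 in U2SURP knockdown was lost without U2SURP library 1 (adjusted p = 0.0854) or 2 (0.0974) or control library 1 (0.098) or 2 (0.102), and with those offsets (0.0652). KCNH2, which carries the rapid repolarising current of the heart, averaged 4.68 ± 0.513 CPM in RBM17 knockdown, 2.50 ± 0.290 CPM in U2SURP knockdown and 1.95 ± 0.302 CPM in CHERP knockdown, against 4.56 ± 0.549 CPM in control. Its log2 fold change was -0.87 ± 0.12 (adjusted p = 2.78e-06) in U2SURP knockdown and -1.23 ± 0.12 (adjusted p = 1.29e-08) in CHERP knockdown. The other 5 were under 0.2 CPM in every group.

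Silent subunits (KCNF, KCNG, KCNS and KCNV) form no channel alone and modify KCNB channels. All 10 were tested; 3 were called higher and 0 lower in RBM17 knockdown, 2 and 2 in U2SURP knockdown, and 1 and 4 in CHERP knockdown. KCNG1 had 24.7, 25.7 and 24.8 CPM in RBM17 knockdown, 24.2, 26.6 and 26.5 CPM in U2SURP knockdown and 18.2, 21.4 and 19.4 CPM in CHERP knockdown, against 20.7, 20.0 and 20.4 CPM in control. Its log2 fold change was 0.30 ± 0.062 (adjusted p = 0.000228) in RBM17 knockdown and 0.34 ± 0.061 (adjusted p = 8.5e-05) in U2SURP knockdown. KCNS3 ranged over 3.05 to 3.35 CPM in RBM17 knockdown, 1.33 to 1.73 CPM in U2SURP knockdown and 1.25 to 1.40 CPM in CHERP knockdown, against 2.39 to 2.78 CPM in control. It fell in U2SURP knockdown (-0.74 ± 0.11, adjusted p = 7.52e-06) and CHERP knockdown (-0.97 ± 0.11, adjusted p = 1.19e-07). Its call of a rise in RBM17 knockdown (0.32 ± 0.11, adjusted p = 0.0153) was lost without RBM17 library 3 (adjusted p = 0.0548) or control library 2 (0.081). With offsets for GC content and length that rise was 0.13 and not called (adjusted p = 0.32). KCNF1 ranged over 0.423 to 0.578 CPM in RBM17 knockdown, 0.368 to 0.509 CPM in U2SURP knockdown and 0.0774 to 0.127 CPM in CHERP knockdown, against 0.306 to 0.511 CPM in control. CHERP libraries lay below all others, with a fall of 3.95-fold (-1.98 ± 0.26, adjusted p = 9.63e-07).

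Auxiliary subunits of voltage-gated potassium channels were called higher for 5 genes and lower for 4 in RBM17 knockdown, 1 and 2 in U2SURP knockdown, and 6 and 3 in CHERP knockdown, out of 13 tested of 14. No other role had more members called higher than lower in CHERP knockdown; the 6 were KCNAB2, KCNE2, KCNE4, KCNE5, KCNIP3 and KCNRG. Of these, KCNE2 lost its call without any 1 of 10 libraries (adjusted p of 0.0501 to 0.247). KCNE4 lost it without CHERP library 1 (adjusted p = 0.0556) or 3 (0.102) or control library 1 (0.0856) or 3 (0.0761), and KCNIP3 without CHERP library 3 (0.0567). KCNAB3, a cytoplasmic beta subunit, had 1.17, 0.967 and 1.03 CPM in RBM17 knockdown, 2.59, 2.27 and 2.42 CPM in U2SURP knockdown and 2.97, 2.52 and 2.30 CPM in CHERP knockdown, against 3.63, 3.30 and 2.59 CPM in control. It fell in RBM17 knockdown (-1.59 ± 0.13, adjusted p = 3.51e-10) to 33.3% of control. KCNIP2 and KCNIP1 encode calcium-binding subunits of KCND channels. KCNIP2 fell in all 3 knockdowns and ranged over 1.15 to 1.57 CPM in RBM17 knockdown, 1.23 to 1.67 CPM in U2SURP knockdown and 1.21 to 1.33 CPM in CHERP knockdown, against 1.83 to 2.52 CPM in control; its exons share 413 bases with KCNIP2-AS1 on the opposite strand, which fell in RBM17 knockdown (adjusted p = 0.00382). KCNIP1 had 0.269, 0.439 and 0.312 CPM in RBM17 knockdown, 0.491, 0.247 and 0.377 CPM in U2SURP knockdown and 0.195, 0.181 and 0.155 CPM in CHERP knockdown, against 0.167, 0.150 and 0.166 CPM in control, and the log2 fold change was 1.07 ± 0.27 (adjusted p = 0.00137) in RBM17 knockdown and 1.2 ± 0.26 (adjusted p = 0.000639) in U2SURP knockdown. KCNRG, whose product hinders channel assembly, had 0.621, 0.647 and 0.667 CPM in RBM17 knockdown, 0.335, 0.325 and 0.349 CPM in U2SURP knockdown and 0.458, 0.422 and 0.578 CPM in CHERP knockdown, against 0.244, 0.302 and 0.325 CPM in control. It rose in RBM17 knockdown (1.15 ± 0.18, adjusted p = 8.62e-06) and CHERP knockdown (0.75 ± 0.18, adjusted p = 0.0016), and shares 1086 exonic bases with TRIM13 on the same strand, which rose in both as well (log2 0.23 and 0.29). Reads of the pair cannot be told apart there.

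Inward rectifiers (KCNJ) hold the resting potential and recycle potassium in kidney and glia. Of 16 genes 12 were tested, and 1 was called higher and 6 lower in RBM17 knockdown, 1 and 4 in U2SURP knockdown, and 1 and 5 in CHERP knockdown. KCNJ14 fell in all 3 and ranged over 2.16 to 2.36 CPM in RBM17 knockdown, 3.08 to 3.31 CPM in U2SURP knockdown and 2.70 to 3.42 CPM in CHERP knockdown, against 4.16 to 4.51 CPM in control, with log2 fold changes of -0.94 ± 0.096 (adjusted p = 1.35e-08), -0.46 ± 0.095 (adjusted p = 0.000303) and -0.53 ± 0.095 (adjusted p = 5.91e-05) in RBM17, U2SURP and CHERP knockdown. It shares 350 exonic bases with GRWD1 on the same strand, which rose in each (log2 0.77, 0.37 and 0.25). KCNJ1, a kidney secretory channel, had 0.700, 0.612 and 0.635 CPM in RBM17 knockdown, 1.95, 1.46 and 1.72 CPM in U2SURP knockdown and 1.46, 1.19 and 1.02 CPM in CHERP knockdown, against 1.27, 1.13 and 1.06 CPM in control. RBM17 libraries were the lowest (-0.83 ± 0.15, adjusted p = 4.55e-05) and U2SURP libraries the highest (0.57 ± 0.14, adjusted p = 0.00222), while CHERP libraries overlapped control (0.083 ± 0.14, adjusted p = 0.671). KCNJ5, a subunit of the G protein-gated channel of the heart, ranged over 0.223 to 0.401 CPM in RBM17 knockdown, 0.142 to 0.315 CPM in U2SURP knockdown and 0.471 to 0.624 CPM in CHERP knockdown, against 0.280 to 0.313 CPM in control, and it rose in CHERP knockdown (0.94 ± 0.25, adjusted p = 0.00335). KCNJ10, a potassium channel of glia, ranged over 0.647 to 0.818 CPM in RBM17 knockdown, 0.691 to 0.805 CPM in U2SURP knockdown and 0.898 to 0.975 CPM in CHERP knockdown, against 0.956 to 1.48 CPM in control. It fell in RBM17 knockdown (-0.70 ± 0.15, adjusted p = 0.000448) and U2SURP knockdown (-0.69 ± 0.15, adjusted p = 0.000681). Its call in CHERP knockdown (-0.38 ± 0.15, adjusted p = 0.0419) was lost without any 1 of the CHERP libraries (adjusted p of 0.0606 to 0.0966) and without control library 1 (0.334) or 3 (0.0608).

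The ATP-sensitive pores KCNJ8 and KCNJ11 showed small changes. KCNJ8 had 31.8, 33.4 and 31.8 CPM in RBM17 knockdown, 30.9, 32.3 and 29.7 CPM in U2SURP knockdown and 23.7, 22.2 and 22.4 CPM in CHERP knockdown, against 28.0, 25.9 and 31.1 CPM in control. It fell in CHERP knockdown (-0.31 ± 0.062, adjusted p = 0.00017). Its small rise in RBM17 knockdown (0.19 ± 0.062, adjusted p = 0.0116) was not called without RBM17 library 2 (adjusted p = 0.055) or control library 2 (0.106), and turned to -0.014 with offsets for GC content and length. KCNJ11 ranged over 19.4 to 19.7 CPM in RBM17 knockdown, 20.7 to 22.4 CPM in U2SURP knockdown and 21.96 to 22.8 CPM in CHERP knockdown, against 21.1 to 23.4 CPM in control and had a call in RBM17 knockdown (-0.18 ± 0.056, adjusted p = 0.00847). That call was lost in 4 alternatives, with DESeq2 size factors (adjusted p = 0.0682), by DESeq2's test (0.0515), with both groups fitted alone (0.0664) and without RBM17 library 2 and control library 3 together (0.0902). KCNJ12 (with the near-identical copy KCNJ18) and KCNE1 (with KCNE1B) may share reads with their copies and are uncertain.

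Tandem-pore channels (KCNK) carry background leak current. Of 15 genes 12 were tested; 4 were called higher and 1 lower in RBM17 knockdown, 0 and 4 in U2SURP knockdown, and 0 and 7 in CHERP knockdown. KCNK3 (chr2:26692690-26733420, plus strand), an acid-sensitive leak channel whose upstream sequence is printed above, had 1.28, 1.54 and 1.13 CPM in RBM17 knockdown, 0.0356, 0.0999 and 0.0628 CPM in U2SURP knockdown and 0.0710, 0.0570 and 0.0355 CPM in CHERP knockdown, against 0.0635, 0.0800 and 0.0771 CPM in control. RBM17 libraries held 315 to 399 counts and the other 9 libraries 10 to 32. The log2 fold change was 4.16 ± 0.27 (adjusted p = 1.31e-11) in RBM17 knockdown, a 17.8-fold difference and the largest rise of any member, and U2SURP knockdown (-0.13 ± 0.33, adjusted p = 0.79) and CHERP knockdown (-0.44 ± 0.34, adjusted p = 0.316) were not called. KCNK9, a close relative of KCNK3, ranged over 0.632 to 0.703 CPM in RBM17 knockdown, 0.250 to 0.296 CPM in U2SURP knockdown and 0.167 to 0.201 CPM in CHERP knockdown, against 0.284 to 0.511 CPM in control. It rose in RBM17 knockdown (0.82 ± 0.20, adjusted p = 0.0015) and fell in CHERP knockdown (-1.04 ± 0.22, adjusted p = 0.000383).

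KCNK12 and KCNK13 are close relatives. KCNK12 had 0.677, 0.747 and 0.685 CPM in RBM17 knockdown, 0.174, 0.112 and 0.108 CPM in U2SURP knockdown and 0.135, 0.111 and 0.139 CPM in CHERP knockdown, against 0.478, 0.560 and 0.641 CPM in control, falling 4.25-fold in U2SURP knockdown (-2.09 ± 0.22, adjusted p = 5.42e-08) and 4.35-fold in CHERP knockdown (-2.12 ± 0.22, adjusted p = 2.3e-08). KCNK13 ranged over 0.682 to 0.874 CPM in RBM17 knockdown, 0.446 to 0.605 CPM in U2SURP knockdown and 0.141 to 0.203 CPM in CHERP knockdown, against 0.595 to 0.808 CPM in control and fell in CHERP knockdown (-1.87 ± 0.20, adjusted p = 5.28e-08), where it was also called lower than in U2SURP knockdown (1.5 ± 0.20, adjusted p = 5.27e-06 for U2SURP over CHERP). KCNK10, a channel opened by stretch and lipids, held 57 to 92 counts in RBM17 knockdown, 11 to 43 in U2SURP knockdown and 1 to 6 in CHERP knockdown, against 34 to 38 in control. At such counts its fitted log2 fold change in CHERP knockdown (-3.67 ± 0.54, adjusted p = 4.29e-06) is imprecise. KCNK1 fell in all 3 knockdowns and ranged over 8.96 to 9.89 CPM in RBM17 knockdown, 6.66 to 7.16 CPM in U2SURP knockdown and 8.61 to 9.51 CPM in CHERP knockdown, against 11.4 to 13.1 CPM in control. KCNK6 had 0.654, 0.905 and 0.754 CPM in RBM17 knockdown, 0.338, 0.478 and 0.443 CPM in U2SURP knockdown and 0.823, 0.570 and 0.507 CPM in CHERP knockdown, against 0.805, 0.751 and 0.881 CPM in control. It fell in U2SURP knockdown (-0.95 ± 0.19, adjusted p = 0.00024) and was not called in RBM17 or CHERP knockdown (adjusted p = 0.746 and 0.114).

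Calcium- and sodium-activated potassium channels (KCNM, KCNN and KCNT) couple ion entry to potassium efflux. With KCNU1, 10 of 12 were tested; 1 was called higher and 2 lower in RBM17 knockdown, 2 and 4 in U2SURP knockdown, and 3 and 5 in CHERP knockdown. KCNMA1, the large-conductance pore, had 0.772, 0.820 and 0.858 CPM in RBM17 knockdown, 1.02, 1.01 and 1.17 CPM in U2SURP knockdown and 0.607, 0.519 and 0.532 CPM in CHERP knockdown, against 1.65, 1.53 and 1.57 CPM in control. It fell in all 3, with log2 fold changes of -0.95 ± 0.13 (adjusted p = 7.52e-07) in RBM17 knockdown, -0.57 ± 0.12 (adjusted p = 0.000665) in U2SURP knockdown and -1.52 ± 0.13 (adjusted p = 1.29e-09) in CHERP knockdown. KCNMB3, a beta subunit of that channel, ranged over 0.506 to 0.605 CPM in RBM17 knockdown, 0.580 to 0.666 CPM in U2SURP knockdown and 0.513 to 0.710 CPM in CHERP knockdown, against 0.828 to 1.00 CPM in control. It was called lower in all 3 (-0.68, -0.57 and -0.54), though the call in CHERP knockdown was lost without CHERP library 2 (adjusted p = 0.0573), and it shares 3403 exonic bases with PIK3CA on the opposite strand, which fell in CHERP knockdown (log2 -0.39, adjusted p = 9.09e-06). The small-conductance channel KCNN3 and the sodium-activated channel KCNT1 rose in U2SURP and CHERP knockdown. KCNN3 had 2.28, 1.76 and 2.17 CPM in RBM17 knockdown, 3.59, 3.34 and 3.13 CPM in U2SURP knockdown and 3.28, 3.07 and 3.13 CPM in CHERP knockdown, against 2.31, 2.03 and 1.94 CPM in control. KCNT1 had 1.03, 0.866 and 0.994 CPM in RBM17 knockdown, 1.89, 1.80 and 1.43 CPM in U2SURP knockdown and 1.65, 1.73 and 1.56 CPM in CHERP knockdown, against 0.862, 1.07 and 0.751 CPM in control. The log2 fold changes of KCNN3 were 0.68 ± 0.11 (adjusted p = 1.45e-05) in U2SURP knockdown and 0.59 ± 0.11 (adjusted p = 6.03e-05) in CHERP knockdown, and those of KCNT1 0.93 ± 0.14 (adjusted p = 9.1e-06) and 0.88 ± 0.14 (adjusted p = 1.43e-05). In RBM17 knockdown both overlapped control (adjusted p = 0.921 and 0.569). KCNN2 did the reverse of KCNN3, falling in U2SURP knockdown (-0.71 ± 0.11, adjusted p = 1.5e-05) and CHERP knockdown (-0.77 ± 0.11, adjusted p = 3.94e-06). KCNN4, the intermediate-conductance channel of blood and epithelial cells, ranged over 0.105 to 0.231 CPM in RBM17 knockdown, 0.271 to 0.492 CPM in U2SURP knockdown and 0.408 to 0.473 CPM in CHERP knockdown, against 0.212 to 0.369 CPM in control, and its call in CHERP knockdown (0.73 ± 0.27, adjusted p = 0.0294) was lost without CHERP library 2 (adjusted p = 0.0762) or 3 (0.0829), or control library 1 (0.104) or 2 (0.14).

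Across the 3 knockdowns, which share their control libraries, 18 members (15.4% of those tested) were called lower in each. Among them were CACNA1C, CACNA1G, CACNA1H, CACNA2D2, CACNB2, CACNG8, KCNA1, KCNC4, KCNIP2, KCNJ10, KCNJ14, KCNK1, KCNMA1, KCNMB3, SCN2A, SCN2B and SCN9A. The background was 10.8% of all genes and 12.7% of protein-coding genes, so this share was not far from it. Of the 18, 13 kept the pattern in each of 19 alternative fits other than the 2-fold test, with CACNA1H, KCNC4, KCNJ10, KCNMB3 and SCN2A losing it in 1 or more. No member was called higher in all 3, where the background was 10.2% of all genes and 15.9% of protein-coding genes. Without control library 3, CACNG6 was called higher in all 3, and with offsets for GC content and length KCNAB2 was. Called lower in both U2SURP and CHERP knockdown were 39 members, 33.3% of those tested, against 15.8% of all genes and 20.6% of protein-coding genes.

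Some members were called in opposite directions in RBM17 and CHERP knockdown. Called higher in RBM17 and lower in CHERP knockdown were 13 members, 11.1% of those tested, against 3.71% of all genes and 6.34% of protein-coding genes. They were CACNA1B, KCNA2, KCNC1, KCNE1, KCNJ8, KCNK10, KCNK9, KCNQ1, KCNQ5, KCNS3, SCN11A, SCN3B and SCN8A, and 8 of them kept the pattern in the same 19 alternatives; without control library 2 the count was 8. KCNE1 lost its call in CHERP knockdown without CHERP library 3 (adjusted p = 0.18) or control library 1 (0.162) or 2 (0.0771). With both groups fitted alone it was lost as well (0.0905). KCNK10 lost its call in RBM17 knockdown without RBM17 library 3 (adjusted p = 0.102) or control library 1 (0.0831) or 2 (0.0624). Losses for KCNJ8, KCNQ5 and KCNS3 are given with those genes. CACNA2D4 was among 2 members called lower in RBM17 and higher in CHERP knockdown (1.71% of those tested), a pattern of 2.55% of all genes and 2.75% of protein-coding genes. Its call in RBM17 knockdown was lost without RBM17 library 1 (adjusted p = 0.14) or control library 1 (0.0537) or 2 (0.107), and with both groups fitted alone (0.0833). The call in CHERP knockdown was lost without control library 3 (0.0526). The direct contrast of RBM17 with CHERP knockdown, which uses no control library, was called for all 15. Their choice by opposite calls against control made that outcome likely beforehand, so it is no separate support. Between RBM17 and U2SURP knockdown, 3 members (KCNA2, KCNS3 and SCN11A) were called higher and lower, against 1.89% of all genes and 3.25% of protein-coding genes, and 2 (KCNJ1 among them) lower and higher, against 1.53% and 1.7%. CACNA1B alone was called in opposite directions in U2SURP and CHERP knockdown, against 1.52% and 2.31%. No call in any knockdown was made for 16 members (13.7%), against 27.5% of all genes and 14.4% of protein-coding genes.

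**Figure D4:**
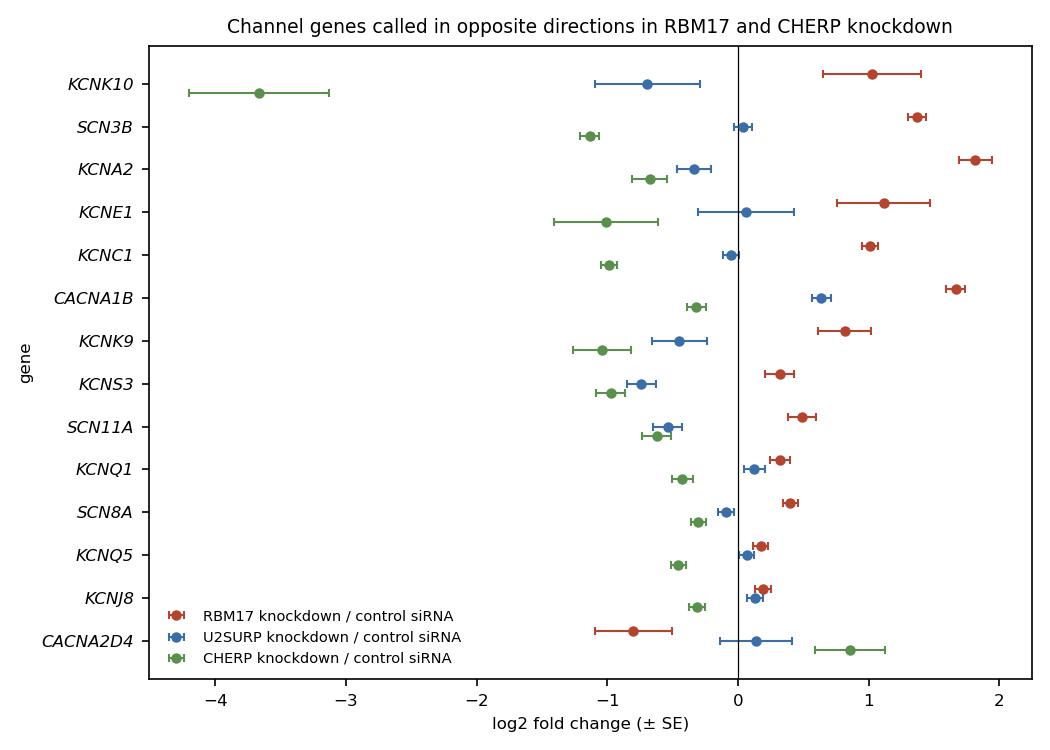
Log2 fold change ± SE against control (x axis) of 14 channel genes (rows) called in opposite directions in RBM17 and CHERP knockdown, with U2SURP knockdown beside them. Of these, 13 lie right of 0 in RBM17 knockdown and left of 0 in CHERP knockdown, and CACNA2D4 lies the other way.

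In direct contrasts, 45 members (38.5%) were higher and 21 (17.9%) lower in RBM17 than in U2SURP knockdown, against 23% and 21.5% of all genes and 36.2% and 20.3% of protein-coding genes. Under GC and length offsets the split was 38 to 30. RBM17 knockdown was higher than CHERP knockdown for 52 members (44.4%) and lower for 28 (23.9%), against 26.1% and 25.5% of all genes and 40.4% and 23% of protein-coding genes. U2SURP knockdown was higher than CHERP knockdown for 34 (29.1%) and lower for 16 (13.7%), against 15% and 12.9% of all genes and 21.4% and 15.2% of protein-coding genes. The widest gaps with a mean of at least 0.2 CPM were those of KCNK3, at 4.28 ± 0.27 (adjusted p = 1.64e-11) for RBM17 over U2SURP and 4.59 ± 0.28 (adjusted p = 2.68e-12) for RBM17 over CHERP. CACNG4 (2.59 ± 0.26, adjusted p = 1.2e-08) and SCN3B (2.51 ± 0.073, adjusted p = 8.41e-18) were also among the widest for RBM17 over CHERP. CACNA1S was lowest in RBM17 relative to U2SURP (-1.78 ± 0.25, adjusted p = 3.23e-06) and CHERP knockdown (-2.07 ± 0.25, adjusted p = 2.2e-07). KCNF1 was the widest for U2SURP over CHERP (2.13 ± 0.26, adjusted p = 1.1e-06), and KCNJ5 (-1.14 ± 0.25, adjusted p = 0.0013) the lowest.

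Markers of neurons moved in both directions in RBM17 knockdown. The summed level of 7 of 7 neuron markers measured was 74.5 to 78.6 CPM in RBM17 knockdown, 43.8 to 44.8 CPM in U2SURP knockdown and 33.4 to 35.2 CPM in CHERP knockdown, against 47.4 to 50.6 CPM in control. SYP, a synaptic vesicle protein, had 51.1 to 56.0 CPM in RBM17 knockdown, 17.0 to 17.9 CPM in U2SURP knockdown and 7.51 to 9.32 CPM in CHERP knockdown, against 20.1 to 22.6 CPM in control. It made up most of the sum in RBM17 knockdown. SYP, MAP2, SNAP25 and RBFOX3 were called higher in RBM17 knockdown, with log2 fold changes of 1.31, 1.77, 2.87 and 0.46. GAD1, SLC17A7 and TUBB3 were called lower there (-0.77, -0.53 and -0.79). In CHERP knockdown SYP, MAP2, SNAP25 and SLC17A7 were called lower and RBFOX3 higher. None of the 7 stayed under 0.1 CPM in every library. Summed muscle markers were 1.69 to 3.11 CPM in the knockdowns and 2.94 to 3.68 CPM in control. The part of these markers in the channel results was not tested.

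Among 36 genes whose products bind or regulate these channels, 30 were tested; 10 were called higher and 9 lower in RBM17 knockdown, 7 and 8 in U2SURP knockdown, and 6 and 13 in CHERP knockdown. The shares called higher and lower were 33.3% and 30% in RBM17 knockdown, 23.3% and 26.7% in U2SURP knockdown, and 20% and 43.3% in CHERP knockdown, beside 25.4% and 29.3%, 21.1% and 22.2%, and 22.8% and 24.6% of all genes. Over protein-coding genes the shares were 38.7% and 27.2%, 29.4% and 26.8%, and 29.6% and 31%. The median log2 fold changes of these partner genes were -0.018, -0.15 and -0.28. Medians over all genes were -0.099, -0.025 and -0.0035, and over protein-coding genes 0.06, 0.0095 and -0.0028. CALM2 and CALM3, which encode calmodulin, a calcium sensor that binds many channel pores, and FGF12, a partner of sodium channels, were called higher in each knockdown. FGF12 had 2.82 ± 0.258 CPM in RBM17 knockdown, 1.86 ± 0.095 CPM in U2SURP knockdown and 1.86 ± 0.118 CPM in CHERP knockdown, against 1.38 ± 0.101 CPM in control (SD, n = 3 each). STAC3, a part of the calcium channel complex of skeletal muscle, was called lower in each, at 1.88 ± 0.226 CPM, 2.97 ± 0.165 CPM and 2.46 ± 0.101 CPM in RBM17, U2SURP and CHERP knockdown, against 5.02 ± 0.109 CPM in control. Of 66 other cation and anion channel genes 61 were tested, and 4 were called higher and 32 lower in RBM17 knockdown, 5 and 33 in U2SURP knockdown, and 5 and 32 in CHERP knockdown, with median log2 fold changes of -0.32, -0.28 and -0.30. The shares called lower were 52.5%, 54.1% and 52.5%, and those called higher 6.56%, 8.2% and 8.2%, set against the same shares of all genes and of protein-coding genes. The acid-sensing channel ASIC1 and the stretch-gated channel PIEZO1 were called lower in each, and the calcium release channel RYR1 was called higher in U2SURP and CHERP knockdown.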

How the data were processed

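Poly(A) RNA was sequenced from 12 libraries after a stranded mRNA preparation, per the labels' protocols. The authors deposited whole-number counts of reads per gene for each library. HISAT2 2.0.5, SAMtools, HTSeq and GRCh38 are named in the submitters' processing notes; neither the annotation release nor the strand setting was stated in them. Gene names, coordinates, exon lengths and types were matched from GENCODE 29 by gene ID, for 57041 of 60554 IDs, and promoters from RefSeq on GRCh38.p14. Totals were 252505520 to 320986785 counts per library, and replicate libraries differed by more than counting noise.

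Counts were filtered with filterByExpr (minimum count 10) and scaled by TMM in edgeR 4.0.16 under R 4.3.3, and a quasi-likelihood model of all 4 groups was fitted to 29003 genes, with Benjamini-Hochberg adjustment over all of them and a threshold of 0.05. CPM uses the TMM-scaled library size, and TPM the counts per exon length. Fitted log2 fold changes use a prior count of 0.125. The model was tested on simulated data. Alternatives used DESeq2 1.42.0 as well. Per-library values or their range were given for the 8 largest called changes per direction and knockdown and the 4 largest per direct contrast, at a mean of at least 0.2 CPM, for members called alike in all 3 knockdowns, and for the 8 most abundant in control; other members were named for their role. Some genes that enter the counts are not reported here by name. The members and lists were chosen with earlier results of these data known.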

Additional observations from a re-analysis of the deposited data

Results flagged for a closer look

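A difference between the responses to 2 knockdowns is given here where a channel gene was called in opposite directions against control and the direct contrast of the knockdowns, which uses no control library, was called by edgeR with Benjamini-Hochberg adjustment. Values are log2 fold changes, the first knockdown over the second. The groups have 3 libraries each, so no library was tested as standing apart.

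For RBM17 over CHERP knockdown, the positive differences were 4.69 for KCNK10, 2.51 for SCN3B, 2.49 for KCNA2, 2.13 for KCNE1, 2.00 for KCNC1, 1.98 for CACNA1B and 1.86 for KCNK9. They were 1.29 for KCNS3, 1.11 for SCN11A, 0.75 for KCNQ1, 0.70 for SCN8A, 0.63 for KCNQ5 and 0.50 for KCNJ8. CACNA2D4 had a negative difference, -1.66. All RBM17 libraries lay on one side of all CHERP libraries for each of these genes. Their choice by opposite calls made that likely, and no share of all genes so separated is given. KCNK10 rests on 1 to 6 counts in CHERP libraries.

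For RBM17 over U2SURP knockdown, the differences were 2.15 for KCNA2, 1.06 for KCNS3, 1.03 for SCN11A and -1.39 for KCNJ1. For U2SURP over CHERP knockdown, CACNA1B differed by 0.96, with 10.8, 11.3 and 12.3 CPM in U2SURP knockdown and 6.23, 5.86 and 5.63 CPM in CHERP knockdown. KCNA2, KCNS3 and SCN11A stand in both of the first lists. The calls against control of several of these genes depend on single libraries or on the processing, as given above with each gene.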

How the results depend on the processing

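The call counts were recomputed with DESeq2 size factors, DESeq2's Wald test, no filter, the groups compared alone, protein-coding genes alone, GC and length offsets, a tested minimum of 2-fold and without each library; a fit without RBM17 library 2 and control library 3 together was chosen after seeing the data. Apart from the minimum of 2-fold, every count of calls per comparison and direction stayed within 1.5 times its value. With that minimum, calls were 6 higher and 5 lower in RBM17 knockdown, 0 and 3 in U2SURP knockdown and 1 and 12 in CHERP knockdown. They were 6 and 1 for RBM17 over U2SURP, 18 and 2 for RBM17 over CHERP, and 1 and 0 for U2SURP over CHERP knockdown. No share of all genes under that minimum is given beside these counts. Members lower in all 3 knockdowns became 0, those higher in RBM17 and lower in CHERP knockdown 0, and those lower in both U2SURP and CHERP knockdown 2. The count higher in all 3 was 1 with GC and length offsets (KCNAB2) and 1 without control library 3 (CACNG6).

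Leaving out 1 library gave 22 to 30 higher and 32 to 38 lower in RBM17 knockdown, 9 to 13 and 34 to 46 in U2SURP knockdown, and 13 to 16 and 52 to 59 in CHERP knockdown. The ranges were 41 to 48 and 19 to 22 for RBM17 over U2SURP, 51 to 56 and 22 to 27 for RBM17 over CHERP, and 27 to 36 and 11 to 17 for U2SURP over CHERP knockdown. Members lower in all 3 numbered 15 to 18, higher in all 3 0 to 1, higher in RBM17 and lower in CHERP knockdown 8 to 14, and lower in U2SURP and CHERP knockdown 30 to 40. Without control library 2 the opposite pattern held 8 members. Of 392 called pairs of a channel gene and a comparison, 301 stayed called in all 19 alternatives other than the 2-fold test and 91 were lost in at least 1. The losses named above with each gene are mainly those without 1 library, and several of these calls were lost in other alternatives too. With GC and length offsets, CACNA1H in U2SURP knockdown turned to 0.056 and KCNJ8 in RBM17 knockdown to -0.014; the cause was not tested. No paired analysis was possible because the labels give the groups no shared replicate numbers, and the numbers used here follow sample order. Counts were simulated from mean levels over all 12 libraries, with changes put into RBM17 knockdown for genes of at least 0.2 CPM. Against control, 60% of genes raised by a log2 of 0.5 were recovered and 94% of those raised by 1. Of genes lowered by a log2 of 1, 84% were recovered, and of those raised by 2, 100%. Each share is over 50 genes, and 9 unchanged genes were called among 28356 tested. Only 200 genes were changed, whereas 54.7% of all genes tested were called in RBM17 knockdown against control. The adjustment is stricter with so few changes, so these shares do not give the sensitivity of the calls above.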

Other observations

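Noncoding genes named for a channel locus were counted apart from the protein-coding members. Of 30 such genes 11 passed the filter. In RBM17 knockdown 2 were called higher and 5 lower, in U2SURP knockdown 2 and 2, and in CHERP knockdown 3 and 2. Over all genes tested the shares called higher and lower were 25.4% and 29.3% in RBM17 knockdown. They were 21.1% and 22.2% in U2SURP knockdown, and 22.8% and 24.6% in CHERP knockdown. No difference of these 11 genes from those shares was tested. KCNQ1OT1, a noncoding RNA read antisense within the imprinted KCNQ1 locus, had 18.3 ± 1.65 CPM in RBM17 knockdown, 24.7 ± 1.19 CPM in U2SURP knockdown and 23.8 ± 0.165 CPM in CHERP knockdown, against 35.3 ± 5.98 CPM in control (SD, n = 3 each). Its log2 fold changes were -0.95 (edgeR adjusted p = 4.71e-08), -0.52 (adjusted p = 0.000125) and -0.57 (adjusted p = 3.74e-05), while KCNQ1 itself was called higher in RBM17 knockdown and lower in CHERP knockdown. The exons of KCNQ1OT1 share 121 bases with those of KCNQ1 on the opposite strand. KCNQ5-IT1, within an intron of KCNQ5, rose in each knockdown, with log2 fold changes of 1.26 in RBM17 knockdown (edgeR adjusted p = 9.04e-06), 0.96 in U2SURP knockdown (adjusted p = 0.000383) and 1.06 in CHERP knockdown (adjusted p = 0.000107).

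Some calls rest on few reads and were named after their values were seen. CACNA1F, the calcium channel pore of photoreceptors, had 3, 4 and 3 counts in RBM17 knockdown, against 24, 29 and 13 in control, a fitted log2 fold change of -2.67 ± 0.62 (adjusted p = 0.000798) by edgeR. KCNS2, a silent subunit, had 0.108, 0.173 and 0.244 CPM in RBM17 knockdown, against 0.0234, 0.0348 and 0.0122 CPM in control, a fitted change of 2.86 ± 0.56 (adjusted p = 0.000134). CACNG5 had 0.335, 0.289 and 0.359 CPM in RBM17 knockdown, against 0.134, 0.115 and 0.0974 CPM in control, a fitted change of 1.5 ± 0.32 (adjusted p = 0.000383).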
